A study of Mus musculus with 8 samples.

Results

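The 4 libraries described here came from the ES cell line of genotype Hdac1 lox/lox, in which both alleles of Hdac1 carry lox sites, and they were chosen by their sample labels out of the 8 RNA-seq libraries of the series. Of these 4, 2 were labelled EtOH (ethanol, the vehicle) and 2 were labelled 4OHT (4-hydroxytamoxifen, the ligand widely used to switch on a tamoxifen-dependent Cre recombinase). All were haemogenic endothelium differentiated from mouse C57BL/6 embryonic stem cells, and the other 4 libraries came from a Hdac2 lox/lox line treated with the same agents. The series set out to compare deletion of Hdac1 with deletion of Hdac2 during the emergence of blood from endothelium. The sources used here do not give how the cells carry Cre, which exons the lox sites flank, the dose and time of 4OHT, or whether a line is 1 clone. Cells lacking lox sites but given 4OHT were not analysed here, so that loss of Hdac1, action of Cre and action of 4OHT itself cannot be told apart. Nothing in the labels says that the 2 replicates of a group came from separate differentiations, so the p-values measure only the spread between these libraries, which may be technical.

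HDAC1 and HDAC2 are closely related class I histone deacetylases that remove acetyl groups from histone tails and act mostly inside the same large complexes (Sin3, NuRD and CoREST). Haemogenic endothelium is the specialised endothelium that gives rise to the earliest blood cells through the endothelial-to-haematopoietic transition, in which endothelial genes are shut down and a blood programme led by RUNX1 is put in place. TGF-β signalling through SMAD proteins is a regulator of endothelial and mesenchymal identity.

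The libraries held 17125110 and 19552380 counts (EtOH) and 13127425 and 16730333 counts (4OHT), and 14179 of the 41128 genes in the table were expressed well enough to be tested. Levels are given as CPM (read counts scaled to a common library total) with TMM, a factor that corrects each library for its composition, and in the order EtOH replicate 1, EtOH replicate 2, 4OHT replicate 1, 4OHT replicate 2. The labelled cell type was checked against its markers. The endothelial cadherin Cdh5 was at 1296, 2151, 2471 and 1664 CPM, and the endothelial markers Pecam1, Kdr, Tek, Tie1 and Esam were all above 95 CPM in every library. Runx1 and Tal1, which mark the haemogenic state, were at no less than 112 and 238 CPM, while the pan-leukocyte gene Ptprc did not exceed 0.35 CPM. Genes of early blood were present as well: Kit stood between 56.5 and 185 CPM and Itga2b between 99.0 and 169 CPM. The pluripotency genes Pou5f1 and Nanog did not exceed 1.05 and 0.80 CPM. Of the visceral endoderm markers, Afp did not exceed 0.546 CPM, and Ttr and Apoa1 were at 0 in 3 of the 4 libraries. The smooth muscle gene Acta2, in contrast, stood between 911 and 1356 CPM in all 4 libraries. On the scale of CPM per kilobase of exon, the 4-library means were 541 for Acta2, 451 for Cdh5 and 0.0148 for Ptprc.

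The replicates of this line differed from each other more than those of the Hdac2 line did, and their differences ran in opposite order of replicate number in the 2 groups. Across 10787 genes with a mean of at least 5 CPM, the median difference between replicates was 1.29-fold in EtOH and 1.20-fold in 4OHT, against 1.12-fold in both groups of the Hdac2 line. Between replicates, 869 genes (8.06%) differed by over 2-fold in EtOH and 410 (3.801%) in 4OHT, against 177 and 97 in the EtOH and 4OHT groups of the Hdac2 line. The biological coefficient of variation, the spread between replicates beyond counting noise, was 29.3% in EtOH and 22.9% in 4OHT, against 14.5% and 13.5% in the Hdac2 line. All 299 genes over 2-fold apart in both Hdac1-line groups were higher in replicate 2 of one group and in replicate 1 of the other. Across all genes tested, the replicate 2 over replicate 1 log2 ratios of EtOH and 4OHT had a Pearson correlation of −0.69, whereas in the Hdac2 line it was 0.26. These correlations are across genes, which are not independent replicates.

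**Figure D1:**
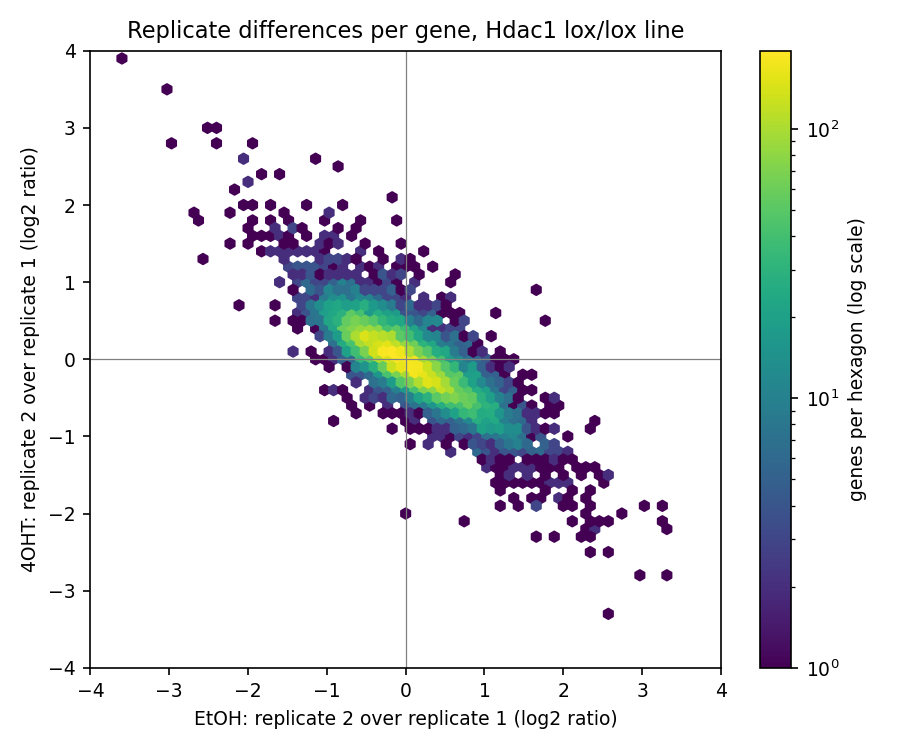
Each hexagon counts genes (log colour scale) by the log2 ratio of replicate 2 over replicate 1 in EtOH (x axis) and in 4OHT (y axis), for the 10787 genes with a mean of at least 5 CPM in the Hdac1 lox/lox line. The cloud runs from upper left to lower right: genes higher in EtOH replicate 2 were mostly higher in 4OHT replicate 1.

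Each EtOH library stood nearest to a library of the other group. Over log2 CPM, EtOH replicate 2 had a correlation of 0.987 with 4OHT replicate 1 and of 0.968 with EtOH replicate 1. EtOH replicate 1 had a correlation of 0.979 with 4OHT replicate 2, and the 4OHT replicates had one of 0.976 with each other. Labels were used as given, and whether libraries were exchanged was not tested. Sost, which encodes the secreted WNT antagonist sclerostin, was at 19.4, 194, 221 and 31.8 CPM. Cyp26a1, a retinoic acid-degrading enzyme, was at 5.62, 57.0, 55.5 and 11.6 CPM. Both were high in EtOH replicate 2 and 4OHT replicate 1 and low in the remaining pair.

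The opposite pattern, high in EtOH replicate 1 and 4OHT replicate 2, was seen for Dlk1, a Notch-related transmembrane protein, at 19.5, 1.45, 0.785 and 13.9 CPM. It was also seen for the homeobox gene Hoxb8 (12.4, 1.45, 1.81 and 13.2 CPM) and for Col1a1, the main fibrillar collagen of mesenchyme (199, 37.4, 38.3 and 269 CPM). Hoxb6, Igfbp5 and Cdh3 followed the same order as Dlk1, and Pappa, Sorbs2, Igfbp7 and Ace followed that of Sost. For all 12 of these genes, taken for their replicate gaps, the EtOH and 4OHT groups overlapped.

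The mitochondrially encoded genes and several metabolic lists moved with the same library order. The 7 mitochondrial genes tested summed to 12411 and 22651 CPM in EtOH and to 17090 and 8303 CPM in 4OHT. Cholesterol synthesis genes (22 tested) summed to 5085 and 3177 CPM in EtOH and to 3611 and 5474 CPM in 4OHT. Within each group, libraries rich in mitochondrial transcripts were poor in cholesterol synthesis transcripts. Serine synthesis and ATF4 genes split in the same way: Psat1, a serine synthesis enzyme, was at 416, 196, 219 and 360 CPM. The part of these differences in the results below was not tested.

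Hdac1 was reported first because it is the gene the line was built to delete. Hdac1 (ENSMUSG00000028800, chr4:129516104-129542713, minus strand, mm10) was at 5.78 and 5.602 CPM in EtOH and at 6.99 and 7.12 CPM in 4OHT. Both libraries labelled 4OHT were thus higher than both labelled EtOH, with a log2 fold change of 0.31 ± 0.23 (SE, n = 2 against 2, as for all log2 fold changes; edgeR quasi-likelihood test, adjusted p = 0.84). These counts do not check the labels. Gm10093, on chr17:78491565-78493541, holds a near-identical copy of the Hdac1 coding sequence: 1435 of 1444 aligned bases were identical, and 67.0% of 100-base windows of the Hdac1 coding sequence occur in it letter for letter. Over the whole Hdac1 transcript of 2038 bases, of which bases 85 to 1528 aligned, 46.7% of 100-base windows occur in the Gm10093 transcript. Within the aligned part, the transcript sequences differ only in reads that cross a mismatch. Spliced transcripts were compared, so how reads over exon junctions of Hdac1 were assigned was not tested. Of the 9 mismatches, 6 fall in a single 100-base stretch, coding positions 383 to 482. It is shown here from the GENCODE transcripts with the differing bases in capitals.
Hdac1: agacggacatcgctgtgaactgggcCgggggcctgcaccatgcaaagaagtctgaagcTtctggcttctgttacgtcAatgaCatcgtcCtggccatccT
Gm10093: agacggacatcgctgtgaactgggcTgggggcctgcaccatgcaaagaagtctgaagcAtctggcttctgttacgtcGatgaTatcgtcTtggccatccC

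Gm10093 carried most of the counts of the pair. It was at 146 and 125 CPM in EtOH and at 110 and 115 CPM in 4OHT, below both EtOH libraries in both 4OHT libraries, with a log2 fold change of −0.27 ± 0.16 (−0.15 without EtOH replicate 1; edgeR quasi-likelihood test, adjusted p = 0.80). Summed over both loci, the level was 141 ± 15.3 CPM (SD, n = 2) in EtOH and 120 ± 3.16 CPM (SD, n = 2) in 4OHT. In the Hdac2 line, where Hdac1 was not the targeted gene, the same sum was 152 ± 15.4 CPM in EtOH and 114 ± 1.65 CPM in 4OHT (SD, n = 2 each). The lower sum with 4OHT was thus not particular to the Hdac1 line. The sources used here do not give how reads that map to both loci were counted. The paralogue Hdac2 (chr10:36974544-37001889) was at 148, 142, 152 and 140 CPM, with overlapping groups. Its log2 fold change was 0.01 ± 0.14, with a 95% interval from −0.31 to 0.34. The sign of this value turned to −0.0039 with upper quartile scaling and to −0.042 with library size alone.

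Between the 2 groups, no gene passed the test. With p-values adjusted by Benjamini-Hochberg, edgeR's quasi-likelihood test called 0 of 14179 genes (0.0%), and the smallest adjusted p was 0.53, for Grap2. At an unadjusted p under 0.05 there were 947 genes (6.68%), of which 597 (4.21%) stood higher and 350 (2.47%) lower in 4OHT. Standard errors, intervals and p-values of this test use a spread per gene shared by all 8 libraries, and replicates were tighter in the Hdac2 line. Fitted to the 4 Hdac1-line libraries alone, the same test put 598 of 13859 genes at an unadjusted p under 0.05, and its smallest adjusted p was 0.9999. limma-voom also called 0 genes, DESeq2 called 32 (0.226%), of which 21 (0.148%) were higher and 11 (0.0776%) lower, and edgeR's likelihood ratio test 35 (0.247%), of which 24 (0.169%) were higher and 11 (0.0776%) lower. DESeq2 and the likelihood ratio test had 30 genes in common. Both also used a spread per gene shared by all 8 libraries, and neither was fitted to the 4 Hdac1-line libraries alone. Their p-values can thus be too small for this line. Without a filter on low counts the quasi-likelihood test called 4 genes, Ccnd1 and Dchs1 higher and Grap2 and Sla lower. Both 4OHT libraries lay outside both EtOH libraries for 4417 genes (31.2%), higher for 2236 (15.8%) and lower for 2181 (15.4%). With an added fold change of at least 2, this left 312 genes (2.2%) higher and 204 (1.44%) lower. With 2 libraries against 2, an exact permutation test of a single gene cannot go below p = 0.333. Were the group labels assigned at random, groups would be expected not to overlap for 33.3% of genes. The 31.2% seen here is near that share.

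Among genes with a mean above 100 CPM, Ccnd1 had the highest log2 fold change; it encodes cyclin D1, the cyclin that drives entry into the cell cycle. Ccnd1 (chr7:144929931-144939869) was at 148 and 152 CPM in EtOH and at 484 and 629 CPM in 4OHT. The gap between the groups was far wider than that within either, and the log2 fold change was 1.89 ± 0.29 (edgeR quasi-likelihood test, adjusted p = 0.71; DESeq2, adjusted p = 2.0e-06). Leaving out 1 library in turn kept it between 1.69 and 2.07. In the Hdac2 line it was 0.35 and was not called.

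Spred3, an inhibitor of RAS-ERK signalling, was among the 10 highest log2 fold changes with a mean of at least 5 CPM and groups that did not overlap, at 2.24, 2.55, 6.52 and 11.2 CPM (log2 fold change 1.89 ± 0.40; DESeq2, adjusted p = 0.013). Spry4, a Sprouty protein that restrains the same pathway, was at 2.78, 3.50, 5.97 and 13.6 CPM (1.64 ± 0.42, or 0.92 without 4OHT replicate 2). The ETS factor Etv5, named after its values were seen, was at 2.13, 1.95, 5.03 and 9.68 CPM, a mean under 5 CPM. DESeq2 called it with a log2 fold change of 1.86 and an adjusted p of 0.010. The immediate early nuclear receptor Nr4a1 owed its place to 1 library: it was at 9.004, 8.20, 9.66 and 42.4 CPM, and its log2 fold change was 0.17 without 4OHT replicate 2.

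Other genes of this group encode surface and secreted proteins. Apln, the apelin peptide of sprouting endothelium, was at 8.95, 31.8, 84.1 and 57.0 CPM (log2 fold change 1.79 ± 0.55). Ly6c1, a surface antigen of endothelial and myeloid cells, was at 6.60, 14.4, 31.2 and 38.7 CPM (1.74 ± 0.39; DESeq2, adjusted p = 0.013). Ly6a, which encodes the stem cell antigen Sca-1, was at 3.06, 10.4, 16.5 and 22.8 CPM (1.54 ± 0.65). In all 3 genes EtOH replicate 1 was the lowest library, and without it the log2 fold changes were 1.15, 1.29 and 0.92, whereas without EtOH replicate 2 they were 2.97, 2.40 and 2.68. Ly6a and Ly6c1 belong to a multigene family whose reads the counting could have split. Kcnn4, a calcium-activated potassium channel (2.02, 2.05, 12.9 and 3.19 CPM), and Vgf, a neuropeptide precursor (6.77, 2.70, 6.91 and 21.1 CPM), each rested on 1 high 4OHT library. The chemokine Ccl2 was at 3.17, 4.30, 8.48 and 13.8 CPM.

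The genes next described were taken for the smallest p-values among those higher in 4OHT with groups that did not overlap. That choice itself favours replicates that are close relative to the group difference. Dchs1, a protocadherin of planar cell polarity, was at 19.97, 23.5, 43.5 and 54.6 CPM (log2 fold change 1.17 ± 0.18; DESeq2, adjusted p = 5.6e-04). Thbd, the anticoagulant thrombomodulin of the endothelial surface, was at 65.2, 72.8, 122 and 162 CPM (1.04 ± 0.19; DESeq2, adjusted p = 0.0085). Jdp2, an AP-1 family repressor, was at 20.4, 23.1, 45.9 and 41.3 CPM (1.01 ± 0.19; DESeq2, adjusted p = 0.013). In these 3 genes the gap between the groups was wider than the gap between the replicates of either group, which the choice of genes favours. Ppap2c, a lipid phosphate phosphatase, and Ctnnal1, an α-catenin-like protein, had log2 fold changes of 1.45 ± 0.29 and 1.20 ± 0.24 and were called by DESeq2 as well (adjusted p = 0.0091 and 0.037).

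**Figure D2:**
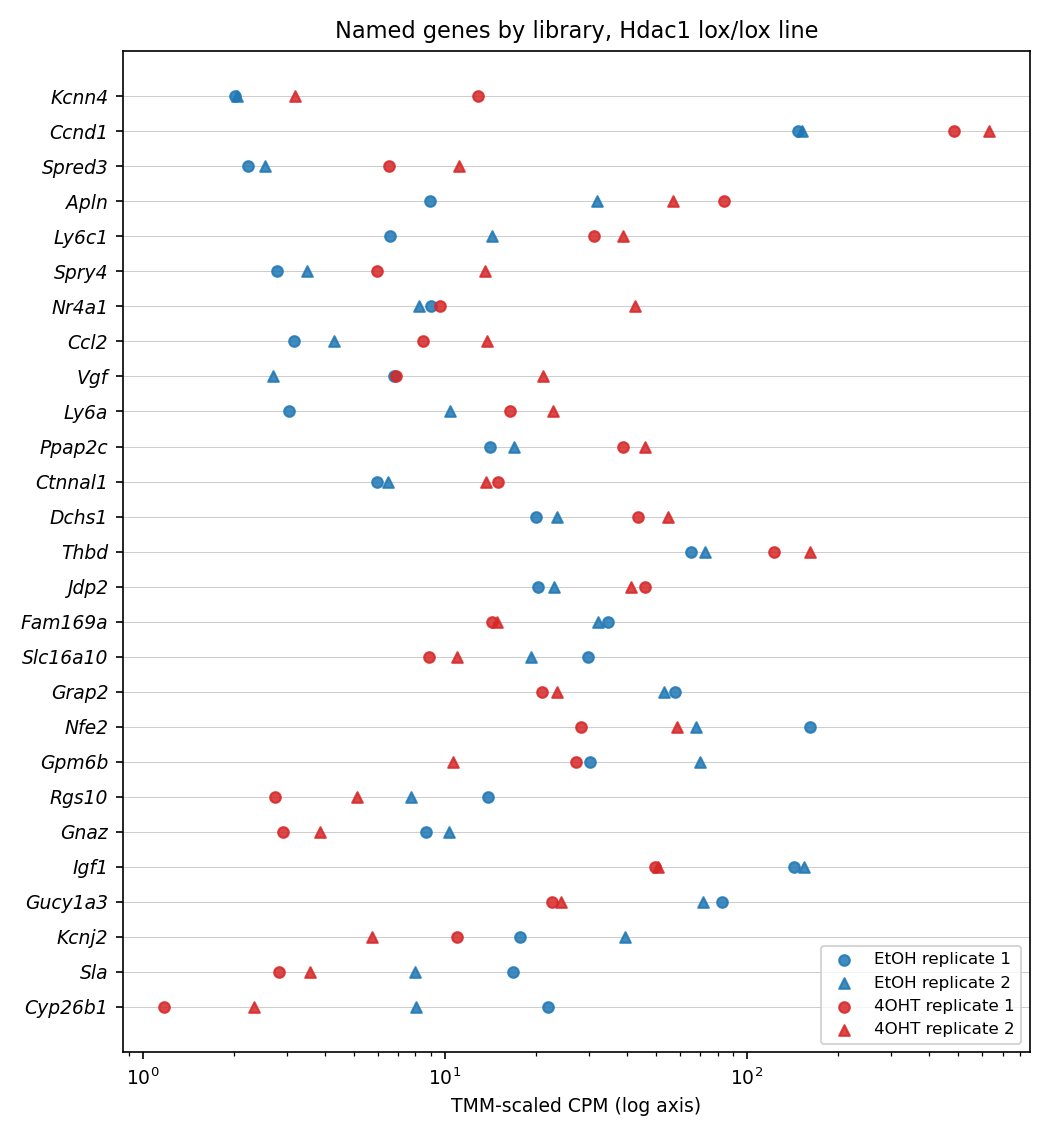
TMM-scaled CPM (log axis) of genes with the highest and lowest log2 fold changes or the smallest p-values, in each of the 4 libraries of the Hdac1 lox/lox line. Ccnd1 runs from 148 and 152 CPM in EtOH to 484 and 629 CPM in 4OHT and Grap2 from 58.0 and 52.9 to 21.0 and 23.5 CPM, whereas Nr4a1 and Kcnn4 have a single high 4OHT library.

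On the lower side, Cyp26b1, which degrades retinoic acid like Cyp26a1, had the lowest log2 fold change among genes with a mean of at least 5 CPM and groups that did not overlap. It was at 21.9, 8.05, 1.18 and 2.33 CPM, so that both 4OHT libraries were below both EtOH libraries, with a log2 fold change of −3.06 ± 0.71 (DESeq2, adjusted p = 0.0067). Gucy1a3, the α1 subunit of soluble guanylate cyclase, the receptor for nitric oxide, was at 82.6, 71.7, 22.7 and 24.3 CPM (−1.72 ± 0.33; DESeq2, adjusted p = 0.0058). Igf1, the growth factor, was at 143, 155, 49.6 and 50.7 CPM (−1.57 ± 0.42), a difference that no tool named here called. In Gucy1a3 and Igf1 the replicates of each group were close together, and with 1 library left out the log2 fold changes ran from −1.82 to −1.61 and from −1.62 to −1.52. Gpm6b (30.3, 69.9, 27.2 and 10.6 CPM) and the potassium channel gene Kcnj2 (17.7, 39.4, 10.99 and 5.75 CPM) were instead highest in EtOH replicate 2.

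Grap2, an adaptor protein of haematopoietic signalling and the gene with the smallest p of all, was at 58.0, 52.9, 21.0 and 23.5 CPM (log2 fold change −1.31 ± 0.16; edgeR quasi-likelihood test, adjusted p = 0.53; DESeq2, adjusted p = 2.0e-06). Sla, which encodes the Src-like adaptor, was at 16.8, 7.95, 2.83 and 3.59 CPM (−1.93 ± 0.36; DESeq2, adjusted p = 0.0066). Sla lies within the thyroglobulin gene Tg on the opposite strand, so its reads could be shared. Nfe2, a transcription factor of megakaryocytes and erythroid cells, was at 162, 67.7, 28.3 and 58.7 CPM (−1.39 ± 0.45), with EtOH replicate 1 the highest library, and without it the log2 fold change was −0.63. Gnaz, a G protein α subunit of platelets, was at 8.68, 10.4, 2.91 and 3.87 CPM (−1.48 ± 0.25; DESeq2, adjusted p = 0.010). Rgs10 (13.9, 7.75, 2.75 and 5.13 CPM) was also lower in both 4OHT libraries. Fam169a (34.7, 32.2, 14.4 and 14.9 CPM) and the amino acid transporter gene Slc16a10 (29.8, 19.4, 8.87 and 10.99 CPM) had log2 fold changes of −1.19 ± 0.22 and −1.30 ± 0.26, and DESeq2 called both.

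Of the 29 gene lists that were followed, p53 targets had the highest median. No member passed the quasi-likelihood test. Of 17 members, 13 were higher and 1, the DNA damage gene Gadd45a (log2 fold change −0.35, or −0.22 without EtOH replicate 2), was lower in both 4OHT libraries, where 15.8% and 15.4% of all genes tested were. The counts of the other lists are to be read against these same shares. Lists and members were chosen with earlier results of these data known, so the shares of all lists are a description and not a test. The median log2 fold change was 0.74, against −0.02 over all genes tested, and it was lowest, at 0.49, without EtOH replicate 1 and highest, at 0.91, without EtOH replicate 2. The members summed to 1715 and 2340 CPM in EtOH and to 3731 and 3069 CPM in 4OHT, so the groups did not overlap. Cdkn1a, the cell cycle inhibitor p21, was at 127, 182, 353 and 310 CPM (1.10 ± 0.44). Ccng1, cyclin G1, was at 639, 763, 1239 and 1043 CPM (0.70 ± 0.28).

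Plk2, a polo-like kinase, was the p53 target with the smallest p. It was at 72.5, 74.4, 148 and 210 CPM, with a log2 fold change of 1.28 ± 0.28, and DESeq2 called it with an adjusted p of 0.015. Trp53inp1, which encodes a p53-inducible stress protein, was at 108, 219, 391 and 243 CPM (0.95 ± 0.40, or 0.53 without EtOH replicate 1, 0.57 without 4OHT replicate 1 and 1.54 without EtOH replicate 2), and Sesn2, a stress sensor that restrains mTORC1, was at 51.6, 58.9, 93.4 and 87.2 CPM (0.71 ± 0.23). In the Hdac2 line the median of the list was 0.05, with 1 member called higher and 1 lower. Of the cyclin-dependent kinase inhibitors (7 tested), 2 were higher in both 4OHT libraries, Cdkn1a and Cdkn2b (8.08, 12.4, 25.7 and 16.6 CPM), and the median log2 fold change was −0.08, or 0.29 without EtOH replicate 2.

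Of 29 TGF-β-responsive genes, 13 (44.8%) were higher and 0 lower in both 4OHT libraries, with a median log2 fold change of 0.53 (0.43 without 4OHT replicate 1 and 0.74 without EtOH replicate 2). None was called by the quasi-likelihood test, and 5 had an unadjusted p under 0.05. Fn1, the matrix protein fibronectin, was at 3247, 4609, 6104 and 4841 CPM (0.48 ± 0.23, or 0.25 without EtOH replicate 1, 0.30 without 4OHT replicate 1 and 0.74 without EtOH replicate 2). Timp3, a metalloproteinase inhibitor, was at 196, 261, 368 and 373 CPM (0.70 ± 0.19), and Loxl2, a matrix cross-linking enzyme, was at 28.6, 27.2, 46.2 and 50.1 CPM (0.79 ± 0.22). Loxl2 was nearly level within each group, whereas Col4a1, a basement membrane collagen, followed the replicate order instead: it was at 1102, 3170.5, 4129 and 2058 CPM, and its groups overlapped.

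Of 29 TGF-β pathway components tested, 7 (24.1%) were higher and 1 (3.45%), the type II receptor gene Tgfbr2, was lower in both 4OHT libraries, against 15.8% and 15.4% of all genes tested. The median log2 fold change was 0.21, and it was −0.05 without EtOH replicate 1, −0.05 without 4OHT replicate 1 and 0.50 without EtOH replicate 2. Among ligands, Tgfb1 was at 289, 179, 144 and 223 CPM, with overlapping groups. Among receptors, Acvrl1, the endothelial type I receptor ALK1, was at 103, 90.3, 111 and 181 CPM (0.60 ± 0.25, or 0.20 without 4OHT replicate 2 and 0.91 without 4OHT replicate 1), and the co-receptor Eng was at 304, 494, 555 and 371 CPM, with overlapping groups. Lrrc32, which tethers latent TGF-β at the cell surface, was at 15.6, 15.2, 17.1 and 50.3 CPM, a difference carried by 4OHT replicate 2. Of the BMP pathway and its targets (21 tested; median 0.20, or −0.11 without EtOH or 4OHT replicate 1 and 0.56 without EtOH replicate 2), 5 (Acvr1, Id1, Id3, Msx2 and Chrd) were higher and 1, Id2, was lower. Id1, a direct BMP target, was at 60.4, 77.9, 93.8 and 115 CPM (0.60 ± 0.20).

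The smooth muscle and mesenchyme list shares Acta2, Tagln, Vim and collagen genes with the TGF-β-responsive list. Of its 19 members tested, 7 were higher and 0 lower in both 4OHT libraries, and the median log2 fold change was 0.38 (0.24 without EtOH replicate 2 and 0.61 without EtOH replicate 1). The members summed to 5765 and 6006 CPM in EtOH and to 8395 and 7977 CPM in 4OHT. Tagln, the smooth muscle actin-binding protein SM22, was at 418, 584, 1093 and 785 CPM (0.91 ± 0.42), and Tpm2, a tropomyosin, was at 39.8, 32.7, 56.5 and 57.6 CPM (0.66 ± 0.20). Myh11, the defining myosin of mature smooth muscle, did not exceed 2.07 CPM in any library. The part of these genes in the TGF-β-responsive result was not tested.

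Among blood genes, the transcription factors had a negative median. Of 22 blood transcription factors, 9 (40.9%, against 15.4% of all genes tested) were lower and 0 higher in both 4OHT libraries, 7 had an unadjusted p under 0.05, and the median log2 fold change was −0.63 (−0.62 to −0.46 with 1 library left out). Runx1, the factor that drives the transition to blood, was at 185, 256, 146 and 112 CPM (−0.77 ± 0.23; edgeR quasi-likelihood test, adjusted p = 0.71). Tal1, a master regulator of blood specification, was at 415, 390, 272 and 238 CPM (−0.66 ± 0.17), and Myb, needed for definitive blood progenitors, was at 62.2, 43.0, 17.8 and 29.0 CPM (−1.16 ± 0.30). In these 3 genes both 4OHT libraries were below both EtOH libraries. Gata2, Gfi1, Gfi1b, Fli1 and Zfpm1 had overlapping groups. In bulk RNA, fewer cells of a type and less RNA per cell cannot be told apart.

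Receptors and lineage genes of blood were more mixed. The 16 erythroid genes tested had a median log2 fold change of −0.83, with 7 lower and 0 higher, but the median was −0.24 without EtOH replicate 1 and −1.66 without 4OHT replicate 2. Their summed level was 1754 and 1048 CPM in EtOH and 704 and 971 CPM in 4OHT, with EtOH replicate 1 far above the rest. The embryonic β-globin gene Hbb-bh1 was at 461, 173, 90.1 and 245 CPM, with overlapping groups, and Car2, carbonic anhydrase, was at 230, 171, 123 and 148 CPM (−0.56 ± 0.20, or −0.33 without EtOH replicate 1). Of 12 megakaryocyte genes tested, 6 were lower and 0 higher (median −0.61, or −0.76 to −0.49 with 1 library left out), among them Itgb3, integrin β3 (756, 960, 708 and 450 CPM), and Plek, pleckstrin (179, 209, 148 and 117 CPM). Of 20 blood surface and signalling genes, 3 (15.0%) were higher, a share near that of all genes tested, and Kit and Sla were among 4 that were lower. Kit, the stem cell factor receptor, was at 185, 107, 56.5 and 102 CPM (−0.88 ± 0.36), and its log2 fold change was −0.43 without EtOH replicate 1, −0.51 without 4OHT replicate 1 and −1.37 without 4OHT replicate 2. Itga2b (CD41), a marker of the first committed blood cells, was at 169, 109, 99.0 and 169 CPM and did not separate the groups. Of 13 macrophage and myeloid genes tested, 4 (Csf1r, Cd68, Prtn3 and Cd14) were higher and 1, Cebpa, was lower, all but Cd68 on few counts. The median of this list was nonetheless negative, at −0.48, or 0.23 without EtOH replicate 1 and −0.86 without EtOH replicate 2. Its members summed to 159 and 57.3 CPM in EtOH and to 49.4 and 83.1 CPM in 4OHT, with overlapping groups, and the lysosomal protein gene Cd68 was at 2.07, 2.15, 5.89 and 5.64 CPM.

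Of 30 endothelial genes, 9 were higher and 3 (Emcn, Clec14a and Ramp2) lower in both 4OHT libraries, against 15.8% and 15.4% of all genes tested, with a median log2 fold change of 0.20 (0.13 without EtOH replicate 1 and 0.39 without EtOH replicate 2). The members summed to 6896 and 9286 CPM in EtOH and to 10326 and 8701 CPM in 4OHT, with EtOH replicate 1 the lowest. Pecam1, the junctional protein CD31, was at 623, 912, 1106 and 854 CPM, and Kdr, the main VEGF receptor, was at 668, 813, 862 and 686 CPM. The endothelial matrix gene Mmrn2 was at 101, 114, 203 and 180 CPM (0.83 ± 0.21), the smallest p of the list. Of 14 arterial and Notch genes, 0 were higher and 4 lower: Hey1 (log2 fold change −1.36, or −0.87 without 4OHT replicate 2) and Hey2, which are Notch target repressors, and the arterial connexin genes Gja4 and Gja5 (−1.06, or −0.61 without 4OHT replicate 2 and −1.62 without 4OHT replicate 1). Gja4 was at 101, 120, 73.2 and 51.7 CPM (−0.82 ± 0.34), and Hey2 at 9.22, 12.6, 5.57 and 4.50 CPM (−1.12 ± 0.48). Notch1 itself was at 145, 256, 289 and 231 CPM, with overlapping groups, and the median of the list was 0.03, or −0.38 without 4OHT replicate 1.

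Of 25 DNA replication genes, 6 (24.0%, against 15.4% of all genes tested) were lower and 0 higher in both 4OHT libraries, and the 95% intervals of all 25 log2 fold changes lay within 2-fold in either direction, as did 63.2% of those of all genes tested. The median was −0.22, and it was −0.35 without EtOH replicate 2 and −0.0017 without EtOH replicate 1. Of 24 mitosis genes, 8 (33.3%) were lower and 0 higher, with a median of −0.15 and 23 intervals within 2-fold. Ccna2, cyclin A2, was at 322, 255, 215 and 226 CPM (−0.39 ± 0.19, or −0.21 without EtOH replicate 1). Of 29 genes of HDAC complexes and class I HDACs other than Hdac1, Mta1 was higher and Mta3 lower. In this list 27 intervals lay within 2-fold, and the median was −0.01. Chd4, the NuRD helicase, was at 643, 716, 708 and 564 CPM, and the corepressor Ncor1 was at 272, 462, 326 and 221 CPM.

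Among the remaining lists, oestrogen-responsive genes were followed because 4OHT binds oestrogen receptors. Of 10 tested, Ccnd1, Igfbp4, Cxcl12 and Greb1 were higher and 0 lower, with a median log2 fold change of 0.19 (0.04 without 4OHT replicate 2). Greb1 is a classical oestrogen receptor target and was at 8.40, 16.0, 20.6 and 18.9 CPM (0.69 ± 0.30, or 0.30 without EtOH replicate 1 and 1.23 without EtOH replicate 2). Of 18 immediate early and stress genes tested, 5 (Junb, Ier3, Atf3, Ddit4 and Hspa1b) were higher and 1, Egr1, was lower, and the stress factor gene Atf3 was at 29.3, 55.7, 80.1 and 94.0 CPM. Of 21 glycolysis and hypoxia genes tested, Hk1, Hk2, Pfkl and Pfkp were higher, a share near the 15.8% of all genes tested, and 0 lower, and the phosphofructokinase gene Pfkp was at 49.9, 51.8, 87.8 and 82.2 CPM. Of 15 interferon-stimulated genes tested, 5 (Ddx58, Parp14, Rsad2, Bst2 and Ifi35) were higher and 3 (Ifit2, Ifih1 and Usp18) lower. Cardiomyocyte genes (12 tested) had 4 lower and 0 higher and a median of −0.32 (−0.64 without 4OHT replicate 2): Hand2, Tnni1, Mef2c and Myh6. Of 9 pluripotency genes tested, Klf4 was higher in both 4OHT libraries and 0 were lower. Of 8 neuronal and ectoderm genes tested, Map2 and Epcam were lower, and of 5 germline genes tested, Tdrkh, Brdt and Sycp3 were lower, the last at no more than 0.327 CPM. Of 7 visceral endoderm and 4 Y-linked genes tested, 0 were higher and 0 lower in both 4OHT libraries.

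**Figure D3:**
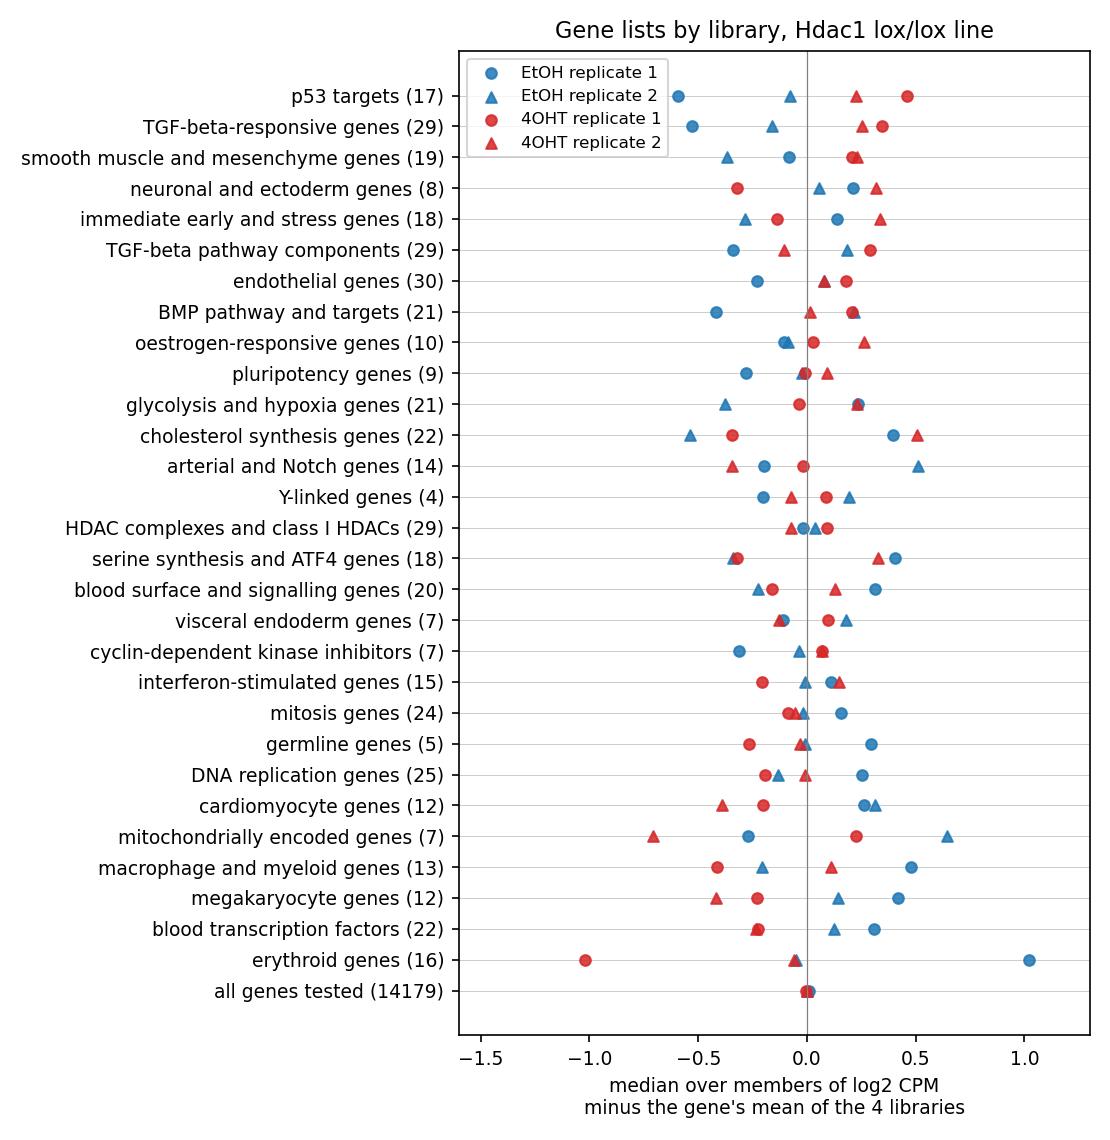
For each list (members tested in brackets), the median over members of log2 CPM minus the gene's mean of the 4 libraries, for each library of the Hdac1 lox/lox line. Both 4OHT libraries lie to the right of both EtOH libraries for p53 targets and TGF-β-responsive genes and to the left for blood transcription factors, whereas cholesterol synthesis and mitochondrially encoded genes split by replicate within each group.

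The 95% interval of the log2 fold change lay within 2-fold in either direction for 8961 of 14179 genes (63.2%). These intervals use the spread shared by all 8 libraries and so draw in part on the tighter Hdac2-line replicates. They can be too narrow for this line, and intervals from its 4 libraries alone were not counted. The median absolute log2 fold change among genes with a mean of at least 5 CPM was 0.17, against 0.56 for the same genes in the Hdac2 line. Among genes that the test called in the Hdac2 line, 5 with narrow intervals here were Gusb, Csnk2a1, Mettl9, Wdr33 and Abcf1. Gusb, β-glucuronidase, was at 79.6, 80.4, 82.4 and 80.9 CPM, with a log2 fold change of 0.03 and an interval from −0.28 to 0.34. Csnk2a1, the catalytic subunit of casein kinase 2, was at 98.3, 97.5, 92.4 and 91.7 CPM, with an interval from −0.40 to 0.22, whereas its log2 fold change in the Hdac2 line was −0.58. Mettl9, Wdr33 and Abcf1 had log2 fold changes between −0.08 and 0.03 here.

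In the Hdac2 line the same test called 5113 genes (36.1%), 2680 (18.9%) higher and 2433 (17.2%) lower with 4OHT. That count was 0 with the replicate number as a block, and it was 116 without EtOH replicate 1, 0 without EtOH replicate 2, 826 without 4OHT replicate 1 and 91 without 4OHT replicate 2 of the Hdac2 line. For those genes the median log2 fold change in the Hdac1 line was 0.12 and −0.13, against 1.36 and −0.97 in the Hdac2 line. The interval in the Hdac1 line lay within 2-fold for 1483 (55.3%) of those called higher and 1918 (78.8%) of those called lower. The replicate gaps of the Hdac1 line followed these genes more closely than its 4OHT difference did: of the 2680 called higher in the Hdac2 line, 2411 were higher in EtOH replicate 2 than in EtOH replicate 1, and 2175 were higher in 4OHT replicate 1 than in 4OHT replicate 2. Of the 2433 called lower, 186 and 359 were. Across genes, the EtOH replicate 2 over replicate 1 log2 ratio of the Hdac1 line had a Pearson correlation of 0.65 with the log2 fold change of the Hdac2 line. The correlation was 0.49 for the Hdac1-line 4OHT replicate 1 over replicate 2 log2 ratio. It was 0.24 for the Hdac1-line log2 fold change of 4OHT over EtOH. All libraries of both lines were scaled together, and the points share these libraries.

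**Figure D4:**
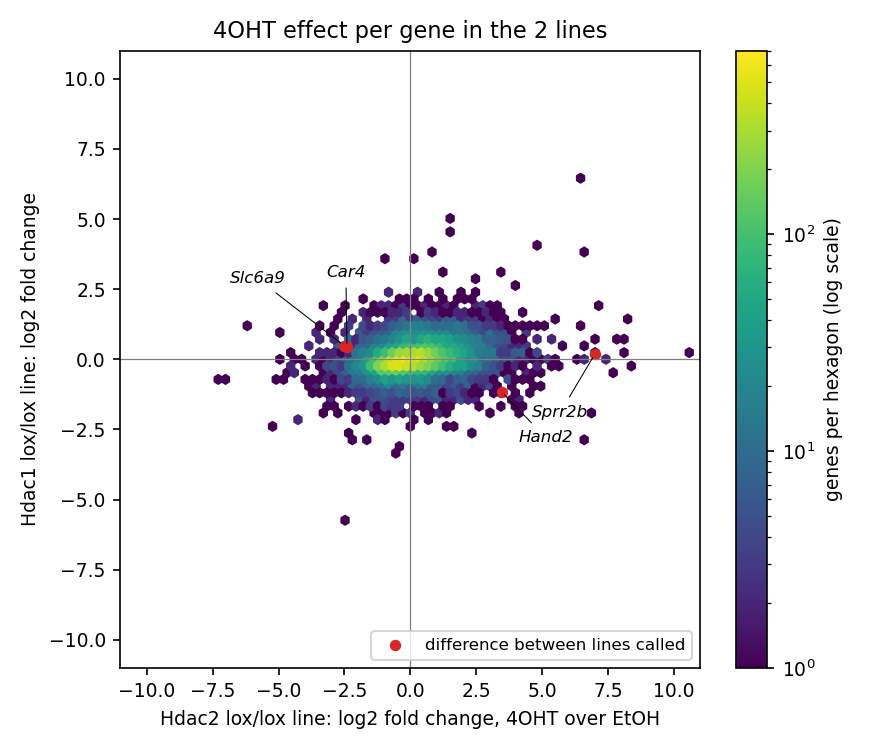
Each hexagon counts genes (log colour scale) by the log2 fold change of 4OHT over EtOH in the Hdac2 lox/lox line (x axis) and in the Hdac1 lox/lox line (y axis), for all 14179 genes tested. Red points are the 4 genes for which the difference between the lines was called, and the cloud is wider along the x axis than along the y axis (median absolute log2 fold change 0.61 against 0.20 over all genes tested).

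A direct test of the difference between the lines (edgeR quasi-likelihood test of the line by agent interaction) called 4 genes (0.0282%), 2 in each direction (0.0141%), and 3973 (28.0%) had an unadjusted p under 0.05. This count depended on the libraries used: it was 3740 without Hdac1-line EtOH replicate 1, 12 without Hdac1-line EtOH replicate 2, 3 without 4OHT replicate 1 and 0 without 4OHT replicate 2 of that line, and 0 without any one library of the Hdac2 line. With library size alone as the scaling it was 11, of which 3 were more positive and 8 more negative in the Hdac1 line, against 2 and 2 with TMM. In the Hdac2 line, EtOH replicate 2 also stood apart in Y-linked genes: Eif2s3y was at 0.324 and 5.63 CPM in its EtOH libraries, against 24.4 to 27.9 CPM in the Hdac1 line.

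Hand2, a transcription factor of heart and mesoderm, went in opposite directions in the 2 lines. It was at 98.0, 106, 52.4 and 38.7 CPM in the Hdac1 line (log2 fold change −1.17 ± 0.26; DESeq2, adjusted p = 0.033), and at 6.94 and 11.8 CPM in EtOH and 95.6 and 110 CPM in 4OHT in the Hdac2 line. The lines' EtOH levels thus differed as well, and the difference between the effects was −4.63 ± 0.38 (adjusted p = 0.019). The glycine transporter gene Slc6a9 was at 17.7, 16.6, 23.9 and 24.1 CPM here and at 52.2, 42.2, 9.62 and 6.93 CPM in the Hdac2 line, with a difference of 2.996 ± 0.30 (adjusted p = 0.034). Car4, a membrane-bound carbonic anhydrase, was at 39.7, 37.0, 56.1 and 46.6 CPM here and at 32.7, 32.5, 7.14 and 5.15 CPM there (2.82 ± 0.28, adjusted p = 0.034). Sprr2b, a cornified envelope protein of a multigene family, was at 4.58, 4.55, 4.08 and 6.21 CPM here. In the Hdac2 line it had 2 counts in EtOH and 266 in 4OHT. Relative to TMM-scaled library totals, this was 143 times as many (95% interval 39.1 to 1184, from counting error). The same ratio was 1.16 (0.933 to 1.45) in the Hdac1 line.

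**Figure D5:**
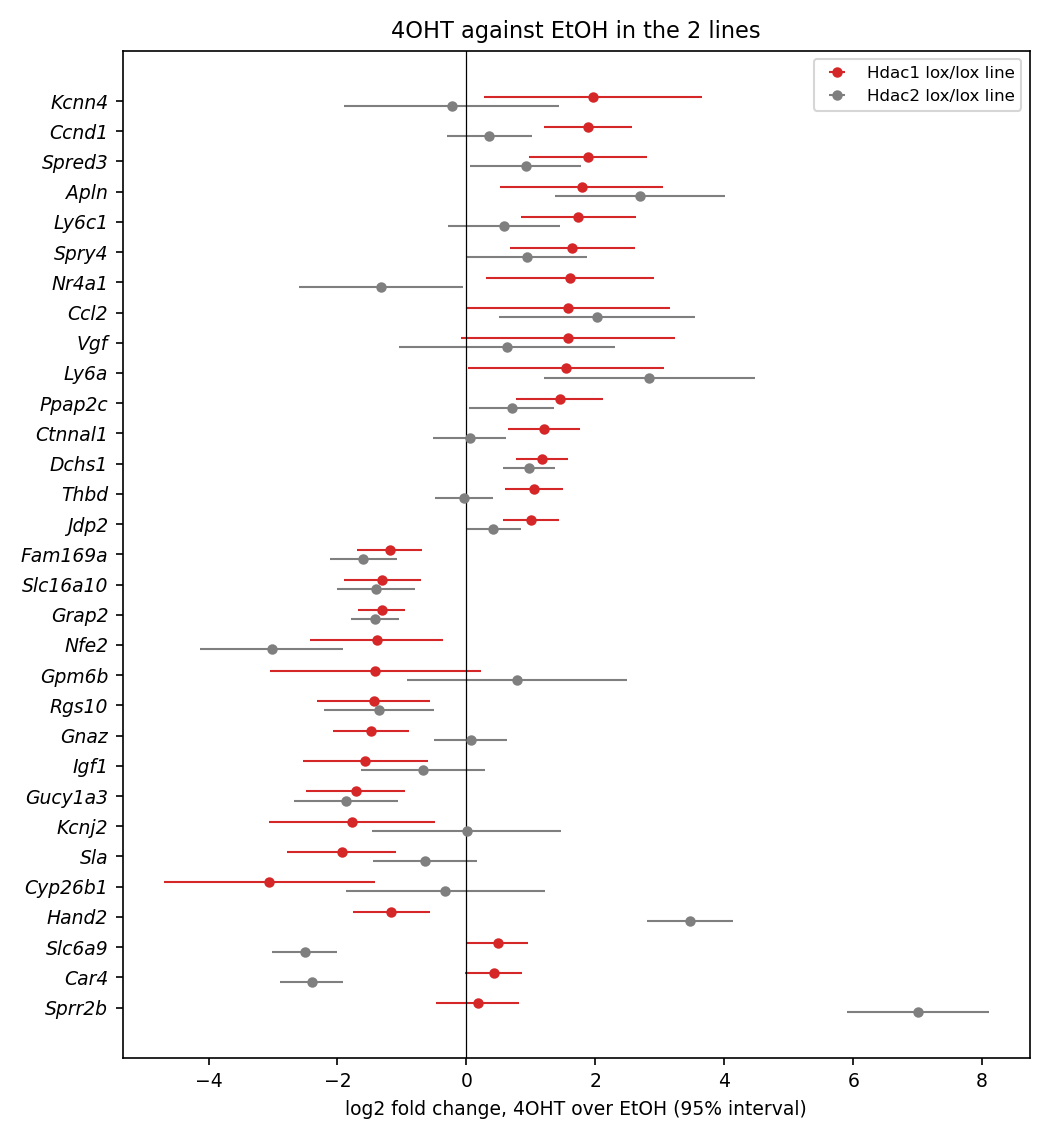
Log2 fold changes of 4OHT over EtOH with 95% intervals from edgeR's quasi-likelihood fit, for genes with the highest and lowest log2 fold changes or the smallest p-values and the 4 genes whose difference between the lines was called, in the Hdac1 lox/lox line (red) and the Hdac2 lox/lox line (grey). Grap2, Gucy1a3 and Fam169a lie on the same side in both lines, whereas Hand2 lies at −1.17 in the Hdac1 line and 3.47 in the Hdac2 line.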

How the data were processed

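RNA was measured by strand-specific RNA-seq. The deposited table holds raw read counts per gene, made by the authors. The submitters' processing notes name genome build mm10 and, with no role, edgeR 3.8.5, R 3.1.0, SAMtools 0.1.19, Bowtie2 2.2.1 and bcl2fastq 2.17.1.14. The sources used here do not give the counting program, annotation, strand setting or treatment of multiply mapping reads. Groups came from sample titles. Genes were filtered with filterByExpr (14179 genes holding 99.9% of counts), scaled by TMM, and tested in edgeR 4.0.16 (R 4.3.3) with a robust quasi-likelihood fit to all 8 libraries and Benjamini-Hochberg adjustment at 0.05. Standard errors came from the F statistic. The script was tested on simulated counts.

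The naming rule took Hdac1 and Hdac2, the 10 highest and 10 lowest log2 fold changes with a mean of at least 5 CPM and groups that do not overlap, the 6 smallest p-values per direction, the 8 widest replicate gaps per group, the 3 most abundant members and 2 smallest p-values of each of the 29 lists, genes whose difference between lines was called, and 5 genes with narrow intervals. Gm10093, Etv5, and list members named because few were on one side were named after their values were seen. The members and lists were chosen with earlier results of these data known. Of 190 genes under the rule, 19 overlap a tested gene on the opposite strand. Those whose partner has at least 0.1 times their CPM, among them Sla, Fam169a, Plek, Eng, Rfc5, Pfkp and Slc6a9, are uncertain. Results for 2 genes under the rule are not reported here. Alternatives were other scalings and filters, DESeq2 1.42.0, limma-voom (limma 3.58.1), the likelihood ratio test, a replicate block and leaving out each library. The copy was aligned with BLAST 2.17.0 to GENCODE M21 transcripts. Intervals on counts cover counting error only.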

Additional observations from a re-analysis of the deposited data

Results flagged for a closer look

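For 4 genes, the effect of 4OHT differed between the Hdac1 lox/lox and the Hdac2 lox/lox line by the test of the difference itself (edgeR quasi-likelihood interaction, adjusted p below 0.05). The log2 difference, Hdac1 line minus Hdac2 line, was −4.63 for Hand2, 2.996 for Slc6a9, 2.82 for Car4 and −6.82 for Sprr2b. The fitted value of Sprr2b rests on 2 EtOH counts in the Hdac2 line and depends on the prior count. Hand2 kept its call with limma-voom, where the other 3 genes had adjusted p-values of 0.060 to 0.063.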

How the results depend on the processing

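The count of 0 genes between 4OHT and EtOH in the Hdac1 line was also obtained with RLE, upper quartile and library size scaling, a stricter filter, limma-voom, the 4 libraries alone, and each library left out (0 to 0, with 2456 genes at an unadjusted p under 0.05 without Hdac1-line EtOH replicate 2). It was 4 without a filter, 32 with DESeq2 and 35 with the likelihood ratio test. With the replicate number as a block it was 0, over all 8 libraries and over the 4 alone. The labels do not say what the number stands for, and the deviations of same-numbered libraries had a correlation of −0.69 across genes in the Hdac1 line and 0.26 in the Hdac2 line. A crossed block, chosen after seeing the data and fitted to the 4 libraries alone, called 945 genes, 711 higher and 234 lower.

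For the difference between the lines, the count was 4, and 11 with library size alone, 1187 without a filter, 1781 with DESeq2, 1927 with the likelihood ratio test, 1 with limma-voom, 0 with the replicate block and 0 to 3740 with 1 library left out. For the Hdac2 line it was 5113, 0 with the replicate block and 0 to 6422 with 1 library left out, where the lone library is assumed to vary like the other groups.

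Of 83 genes followed under every alternative, 5 turned sign with 1 library left out: Hdac2 (−0.044 to 0.068), Cdh5 (−0.057 to 0.67), Col4a1 (−0.056 to 1.48), Mpo (−1.90 to 0.23) and Sprr2b (−0.16 to 0.44). Hdac2 was −0.0039 with upper quartile and −0.042 with library size scaling. The cause was not tested. Many of the 83 genes were taken because their groups did not overlap, and such genes can hardly turn sign with 1 library left out. The count of 5 therefore says little about how firm the other genes are. Scaling moved the median of all genes between −0.02 and −0.07.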
